A study of Mus musculus with 17 samples.

Results

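Cardiac alpha actin (Actc1), skeletal alpha actin (Acta1), 2 cardiac or fetal sarcomere isoforms (Tnnt2 and Myl4) and 3 muscle stress proteins (Ankrd1, Ankrd2 and Csrp3) were followed in the mouse diaphragm, the main muscle of breathing. These 7 genes were taken by symbol from the 47643 symbols of the expression table, and all 7 were found. They were chosen by name with their values in tumor-bearing and tumor-free mice already known, foremost the difference of Actc1, and every comparison that contains the tumor difference is therefore given for them as a description without a test. Expression is in TPM, a unit in which reads are divided by gene length and scaled to the same total in every mouse, so that levels of different genes can be set side by side.

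Male C57BL/6J mice, 4 months of age, either carried no tumor (Control) or carried Lewis lung carcinoma (LLC) cells implanted in both flanks, a transplanted tumor line used as a model of muscle wasting. Mice of each kind were injected intraperitoneally with recombinant Fibcd1 (rFibcd1), which resembles the fibrinogen-domain fragment released from the transmembrane protein Fibcd1, or with a mock solution of albumin in saline. There were 5 Control mice, 5 Control + rFibcd1 mice, 3 LLC mice and 4 LLC + rFibcd1 mice, and Control and LLC stand for mock-injected mice throughout. The study asked whether rFibcd1 opposes what the tumor does to this muscle.

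Adult skeletal muscle fibers build their thin filaments almost wholly from Acta1. Actc1 is the alpha actin of the heart and of developing skeletal muscle, and only little of it is made in adult fibers. Tnnt2 encodes cardiac troponin T, the subunit that ties the calcium-sensing troponin complex to tropomyosin, and Myl4 encodes the essential myosin light chain of the atrium and of embryonic muscle. Ankrd1, Ankrd2 and their relative Ankrd23 form the muscle ankyrin repeat proteins, which bind the elastic I-band region of the giant protein titin and shuttle to the nucleus. Csrp3 encodes the muscle LIM protein of the Z-disc, the plate that anchors the thin filaments.

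How alike both alpha actins are bears on how well short reads can separate a minor actin from a very abundant relative. In GENCODE vM21 (GRCm38), Actc1-201 and Acta1-201 both have 1134 coding bases, 977 of them identical (86.2%), and the longest run without a difference is 29 bases. No run of 50 bases was shared between Actc1 transcripts and the transcripts of any other annotated gene. Acta1 shared 28 such 50-base words with Actb, 10 with Actg1 and between 6 and 31 with each of 8 actin pseudogenes or unnamed genes. Ankrd1, Ankrd2 and Csrp3 shared none, and Myl4 shared 2 with 1 gene. Tnnt2 shared up to 8 with any of 247 genes. An antisense gene lies over Actc1, Acta1 and Myl4 in the annotation, and the strand setting of the read counting is not settled by the sources used here. The antisense gene over Actc1, A530058N18Rik, did not exceed 0.056 TPM in any mouse in either of its entries.

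The 250 bases upstream of the RefSeq start (GRCm38.p6) are given for both alpha actins, whose levels parted, with the CArG box in capitals. This is the element bound by serum response factor, a regulator of actin genes. A perfect CArG box was present in 1.47% of the 32851 promoter windows of this length, and of the 7 genes in Actc1 and Acta1. The pattern is symmetric, so that a search of a single strand covers both. The Actc1 window is chr2:114052876-114053125 and the Acta1 window chr8:123894776-123895025, both on the minus strand.
Actc1: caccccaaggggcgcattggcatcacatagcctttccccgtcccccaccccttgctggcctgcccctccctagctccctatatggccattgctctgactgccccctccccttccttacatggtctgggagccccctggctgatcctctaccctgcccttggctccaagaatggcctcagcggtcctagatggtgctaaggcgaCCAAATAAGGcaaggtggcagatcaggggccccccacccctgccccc
Acta1: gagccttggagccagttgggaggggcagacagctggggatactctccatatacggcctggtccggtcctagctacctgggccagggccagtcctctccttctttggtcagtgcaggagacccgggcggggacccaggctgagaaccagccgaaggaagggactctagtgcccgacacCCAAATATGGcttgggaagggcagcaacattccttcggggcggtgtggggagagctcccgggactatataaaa

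The windows of Ankrd2 and Csrp3, whose levels moved together from mouse to mouse, are given with E-boxes (CANNTG, the element of myogenic factors such as Myod1) in capitals. This pattern is symmetric as well and was present in 66.2% of all windows. Ankrd2 has 3 matches at chr19:42035777-42036026 on the plus strand. Csrp3 has 4 at chr7:48848052-48848301 on the minus strand, upstream of the outer of its 2 listed starts.
Ankrd2: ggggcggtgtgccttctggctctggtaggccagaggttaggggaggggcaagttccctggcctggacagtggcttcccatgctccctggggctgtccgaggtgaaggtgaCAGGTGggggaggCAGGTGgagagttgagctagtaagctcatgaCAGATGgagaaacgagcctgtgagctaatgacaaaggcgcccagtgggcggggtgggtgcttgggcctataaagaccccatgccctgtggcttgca
Csrp3: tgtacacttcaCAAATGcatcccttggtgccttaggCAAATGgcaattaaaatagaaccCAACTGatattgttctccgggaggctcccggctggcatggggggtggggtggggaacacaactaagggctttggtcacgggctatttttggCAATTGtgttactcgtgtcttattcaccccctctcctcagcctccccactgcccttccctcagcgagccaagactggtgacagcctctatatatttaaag

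The M-CAT element (CATTCC on either strand), bound by TEAD factors, was found once in Acta1, once in Tnnt2, 2 times in Ankrd1 and not in these windows of Actc1, Myl4, Ankrd2 or Csrp3. It was present in 12.6% of all windows. No match of a motif overlapped a match of another in the 7 genes. A match is a run of letters and not a measured binding site.

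Actc1 was lower in every tumor-bearing mouse than in every tumor-free mouse. Its level was 205, 209, 290, 356 and 455 TPM in the 5 Control mice and 254, 417, 438, 467 and 677 TPM in the 5 Control + rFibcd1 mice. It was 99.5, 122 and 193 TPM in the 3 LLC mice and 93.3, 93.6, 122 and 161 TPM in the 4 LLC + rFibcd1 mice. The highest tumor-bearing mouse thus lay just below the lowest Control mouse, and the LLC and LLC + rFibcd1 ranges overlapped widely. All tumor-bearing mice lay below all tumor-free mice for 0.526% of the 13305 genes tested and above them for 1.74%, and since Actc1 was picked for this contrast nothing is read from that share.

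**Figure D1:**
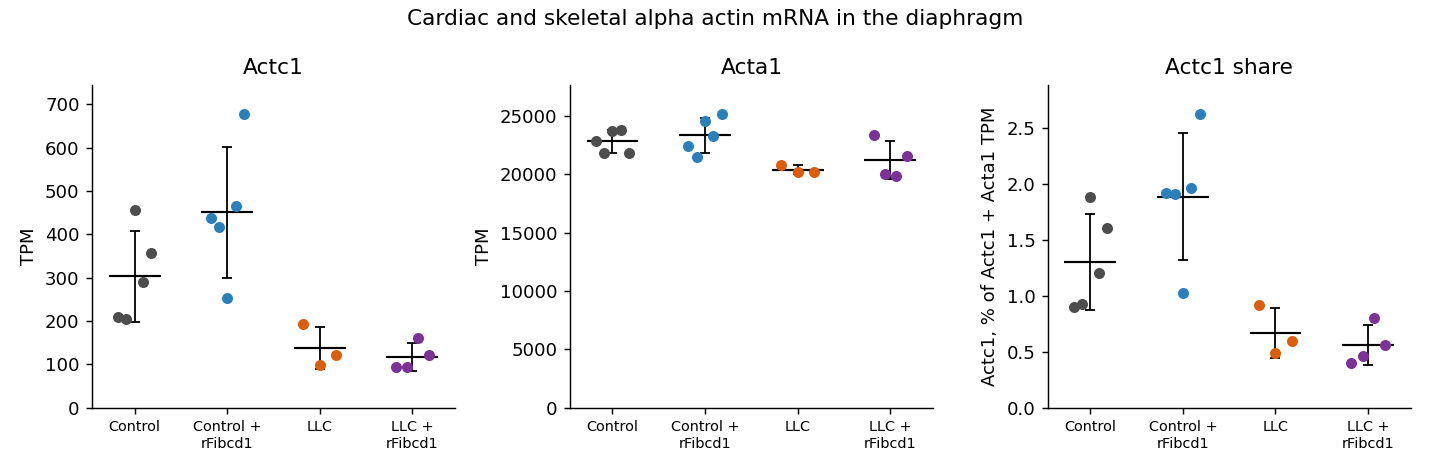
TPM of Actc1 (left) and Acta1 (middle) and the share of Actc1 in their summed TPM in percent (right) in the 4 groups, with points for mice and bars for the mean ± SD. Actc1 lies at 93.3 to 193 TPM in tumor-bearing mice and 205 to 677 TPM in tumor-free mice, while Acta1 stays between 19854 and 25160 TPM in all 17 mice.

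Actc1 averaged 303 ± 106 TPM over the 5 Control mice, 451 ± 151 over the 5 Control + rFibcd1 mice, 138 ± 48.5 over the 3 LLC mice and 118 ± 32.2 over the 4 LLC + rFibcd1 mice (mean ± SD). On the log2(TPM + 1) scale used for all differences, tumor-bearing mice were lower by a difference of -1.52 ± 0.22 (SE), the lowest of the 13305 genes, while the median gene was at 0.13. In mock-injected mice the difference between LLC and Control was -1.12 ± 0.32 (SE), and in rFibcd1-injected mice that between LLC + rFibcd1 and Control + rFibcd1 was -1.90 ± 0.29 (SE). The level also varied widely within groups, with a coefficient of variation from 27.4% in LLC + rFibcd1 to 35.2% in LLC. Its residual SD of 0.47 stood at percentile 93.8 among the 5689 genes with a mean of at least 10 TPM. About 3777 to 27054 reads stood behind each value, by an estimate from the steps between low TPM values, so that counting error was small beside this spread.

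rFibcd1 left no difference in Actc1 that passed the test. Among tumor-free mice the values of Control + rFibcd1 were higher by 0.57 ± 0.28 (SE), with a 95% interval from -0.02 to 1.16 and an adjusted p = 0.927 from limma with Benjamini-Hochberg adjustment over all genes tested. Among tumor-bearing mice the difference between LLC + rFibcd1 and LLC was -0.21 ± 0.34 (SE), with an interval from -0.93 to 0.50 (limma, adjusted p = 0.691), and it became 0.06 without LLC replicate 1. The difference between those 2 effects was -0.78 ± 0.44 (SE, limma, adjusted p = 0.652). The interval in tumor-bearing mice thus holds shifts of either sign.

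Acta1 was the most abundant of the 7 genes by far. Its level ran from 21842 to 23855 TPM in Control, 21470 to 25160 in Control + rFibcd1, 20207 to 20824 in LLC and 19854 to 23362 in LLC + rFibcd1. All 3 LLC mice lay below all 5 Control mice, while LLC + rFibcd1 overlapped every other group. How many genes part LLC from Control in this way was not counted. In that comparison 48.3% of all genes had an unadjusted p under 0.05 (limma). Across tumor status the difference of Acta1 was -0.15 ± 0.04 (SE), a small step beside that of Actc1. It ran from -0.31 to 0.02 over 8 other settings, with -0.01 under quantile normalization and 0.02 when mice were scaled to pan-myofiber genes. The rFibcd1 difference was 0.05 ± 0.06 with a tumor (SE, limma, adjusted p = 0.594) and 0.03 ± 0.05 without (SE, limma, adjusted p = 0.931).

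Within the pair of alpha actins, the share of Actc1 averaged 1.30% ± 0.428 over the Control mice and 1.89% ± 0.568 over the Control + rFibcd1 mice (mean ± SD, n = 5 each). It averaged 0.669% ± 0.221 over the 3 LLC mice and 0.558% ± 0.179 over the 4 LLC + rFibcd1 mice (mean ± SD). LLC replicate 1, at 0.916%, lay above the lowest Control mouse, at 0.904%, so that the share did not keep the tumor-bearing mice apart from the others as TPM did. For each Actc1 transcript there were 37.1 to 110 Acta1 transcripts in tumor-free mice and 108 to 250 in tumor-bearing mice. The share was 0.584 percentage points higher in Control + rFibcd1 than in Control (exact permutation test, two-sided p = 0.0794) and 0.111 points lower in LLC + rFibcd1 than in LLC (difference -0.111, exact permutation test, two-sided p = 0.457). Without each mouse in turn, the former ran from 0.400 points without Control + rFibcd1 replicate 5 (exact p = 0.206) to 0.799 points without Control + rFibcd1 replicate 3 (exact p = 0.0159).

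Other cell types can add to a bulk value, and in such samples fewer cells of a type and less RNA per cell cannot be told apart. The summed level of 10 skeletal myofiber markers was 36766 to 38960 TPM in Control and 35420 to 40701 in Control + rFibcd1, against 29368 to 32007 in LLC and 29815 to 34724 in LLC + rFibcd1, and 7 of the 10 were lower in LLC than in Control (limma, adjusted p under 0.05), beside 6.02% of all genes. Without LLC replicate 3, 0 of the 70 cell type markers tested were called in either direction. As a percentage of 12 summed pan-myofiber genes, Actc1 was 0.657 to 2.06 in tumor-free and 0.294 to 0.724 in tumor-bearing mice, ranges that overlapped through LLC replicate 1. Scaled to those genes in each mouse, the tumor difference of Actc1 was -1.36. The summed level of 10 cardiomyocyte markers was 2.12 to 9.14 TPM over all mice. The highest of them were Myl7, at up to 3.80 TPM, and Gata4, Myh6 and Tnni3, at up to 2.06, 1.39 and 1.22 TPM. Nkx2-5 was at 0 in all mice but 1, Nppa did not exceed 0.239 TPM and Mybpc3 not 0.164 TPM. The part of myofiber content in the Actc1 difference was not tested further.

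The cardiac and fetal isoforms were present at very low levels. Tnnt2 was 0.766, 0.969, 1.02, 1.30 and 2.33 TPM in Control and 1.04, 1.30, 1.37, 1.48 and 2.96 TPM in Control + rFibcd1. It was 1.50, 1.53 and 8.91 TPM in LLC and 0.906, 1.28, 1.83 and 2.58 TPM in LLC + rFibcd1. LLC replicate 3 thus stood apart from all the other 16 mice, which overlapped across groups.

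The LLC difference from Control in Tnnt2 was 0.84 ± 0.39 (SE), ran from 0.54 to 1.15 over the other settings and became 0.18 without that mouse. The rFibcd1 difference among tumor-bearing mice was -0.62 ± 0.40 (SE, limma, adjusted p = 0.321), or 0.04 without it. In each of the 4 groups the mouse with the highest Tnnt2 was also the mouse with the highest sum of 7 smooth muscle markers and with the highest Actg2, the enteric smooth muscle actin. That sum was 593 TPM in LLC replicate 3 and did not exceed 250 TPM in the other 16 mice. Of the 7 markers, 3 were higher in LLC than in Control (limma, adjusted p under 0.05), beside 29.7% of all genes, and none was called without that mouse. Actg2 was 51.0 TPM in LLC replicate 3, 10.4 in the Control mouse, 4.69 in the Control + rFibcd1 mouse and 8.64 in the LLC + rFibcd1 mouse concerned, with the other 13 mice at 0.483 to 2.58 TPM. The part of smooth muscle in the Tnnt2 values was not tested.

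**Figure D2:**
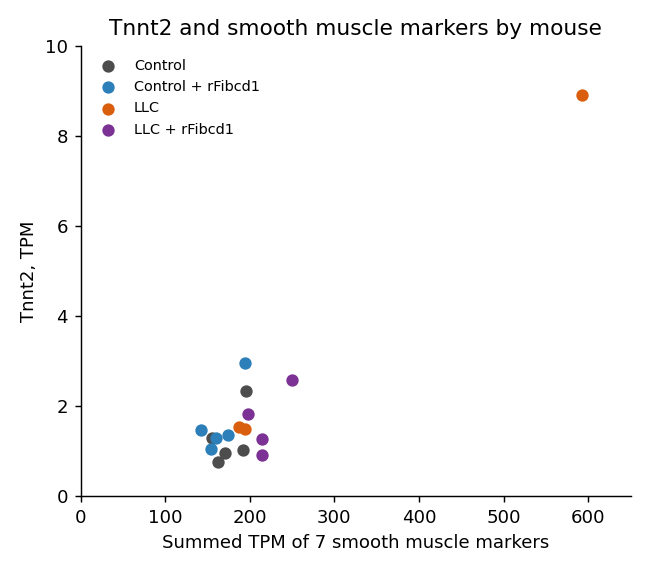
TPM of Tnnt2 (vertical) against the summed TPM of 7 smooth muscle markers (horizontal) with a point for each of the 17 mice, colored by group. LLC replicate 3 lies alone at 593 TPM of markers and 8.91 TPM of Tnnt2.

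Myl4 was higher in the 3 LLC mice than in every mouse of the other groups. It was 1.26, 1.36 and 1.50 TPM in LLC and 0.833, 0.837, 1.05 and 1.08 TPM in LLC + rFibcd1. Values in Control ran from 0.440 to 0.883 TPM and in Control + rFibcd1 from 0.509 to 0.812 TPM. LLC + rFibcd1 mice thus lay below all LLC mice and overlapped the Control range at its upper end. The share of all genes whose values part LLC from Control was not counted. Only 5 mice reached the 1 TPM that the filter on low values asks of at least 3 mice, and all 5 carried a tumor, so that Myl4 entered the fit through the groups in which it was high. Between 50.9 and 174 estimated reads stood behind each value.

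The LLC difference from Control in Myl4 was 0.46 ± 0.10 (SE), with 0.15 under quantile normalization and 0.84 with a pseudocount of 0.1 TPM. LLC + rFibcd1 differed from LLC by -0.29 ± 0.11 (SE), a description without a test given how Myl4 entered the fit. Values of these groups failed to overlap for 14.6% of all genes tested, so that a gap of this kind was common. Under quantile normalization the difference was -0.10, and with the smaller pseudocount -0.50. Without a tumor the rFibcd1 difference was -0.03 ± 0.09 (SE).

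**Figure D3:**
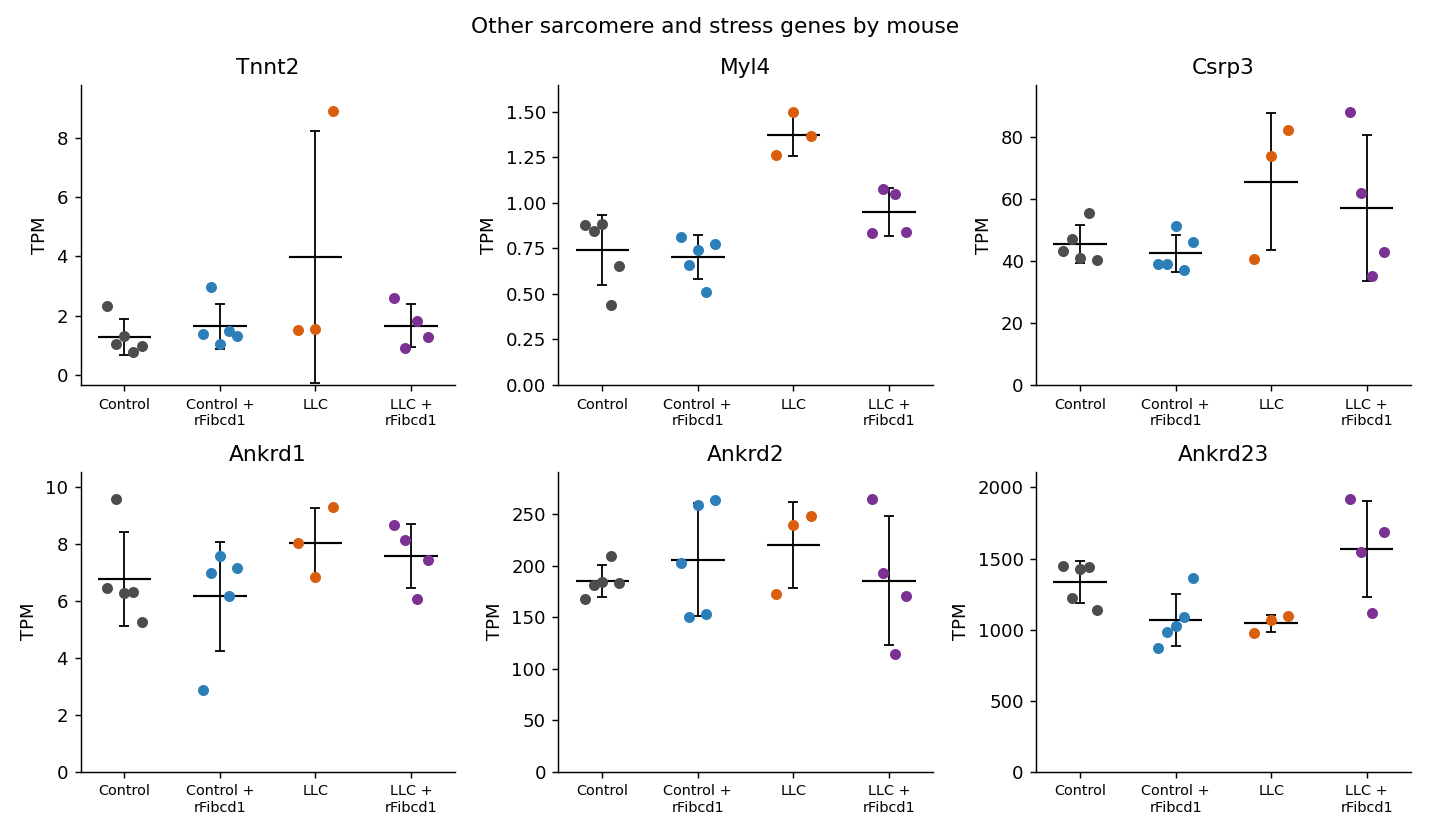
TPM of Tnnt2, Myl4, Csrp3, Ankrd1, Ankrd2 and Ankrd23 in the 4 groups, with points for mice and bars for the mean ± SD. Myl4 is at 1.26 to 1.50 TPM in LLC and at most 1.08 TPM in all other groups, and LLC replicate 3 lies alone at 8.91 TPM of Tnnt2.

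Among the stress proteins, Ankrd1 and Ankrd2 kept overlapping values in all 4 groups, and Csrp3 spread out in tumor-bearing mice. Csrp3 was 40.4, 41.0, 43.2, 46.9 and 55.3 TPM in Control and 36.9, 38.8, 38.9, 46.1 and 51.2 TPM in Control + rFibcd1. It was 40.6, 73.9 and 82.0 TPM in LLC and 34.95, 42.9, 61.9 and 87.8 TPM in LLC + rFibcd1. The coefficient of variation was 33.5% and 41.3% in the tumor-bearing groups and 13.5% and 14.3% in the tumor-free ones, and 4 tumor-bearing mice exceeded every tumor-free mouse, while 2 lay among them and 1 below. Across tumor status the difference was 0.39 ± 0.17 (SE), with a range from 0.23 to 0.55 over the alternatives, and LLC + rFibcd1 differed from LLC by -0.23 ± 0.27 (SE, limma, adjusted p = 0.585). The latter ran from -0.53 without LLC replicate 1 to -0.025 without LLC + rFibcd1 replicate 3.

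Ankrd2 was 168, 181, 184, 185 and 210 TPM in Control and 150, 153, 203, 259 and 264 TPM in Control + rFibcd1. It was 173, 240 and 249 TPM in LLC and 114, 171, 193 and 265 TPM in LLC + rFibcd1. The Control mice lay close together, and the groups overlapped. The tumor difference was 0.01 ± 0.16 (SE) and ran from -0.15 to 0.18 with the scaling. The rFibcd1 difference was -0.29 ± 0.25 with a tumor (SE, limma, adjusted p = 0.438) and 0.11 ± 0.21 without (SE, limma, adjusted p = 0.937). With a tumor it ran from -0.48 without LLC + rFibcd1 replicate 1 to -0.08 without LLC + rFibcd1 replicate 3, and without a tumor it was 0.013 without Control + rFibcd1 replicate 5.

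Ankrd1, which is made at far higher levels in the heart, ran from 5.25 to 9.59 TPM in Control, 2.88 to 7.60 in Control + rFibcd1, 6.85 to 9.29 in LLC and 6.07 to 8.68 in LLC + rFibcd1. Control + rFibcd1 replicate 1 was the lowest of the 17 mice at 2.88 TPM. Its tumor difference was 0.26 ± 0.15 (SE) and ran from 0.060 under quantile normalization to 0.41 when scaled to pan-myofiber genes. The rFibcd1 differences were -0.08 ± 0.24 with a tumor (SE, limma, adjusted p = 0.838) and -0.15 ± 0.20 without (SE, limma, adjusted p = 0.927).

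Ankrd23, the third ankyrin repeat relative and the most abundant, is not among the 7 genes and was taken up for its family. It was 1136 to 1450 TPM in Control, 872 to 1366 in Control + rFibcd1, 973 to 1093 in LLC and 1119 to 1919 in LLC + rFibcd1. Values of LLC + rFibcd1 and LLC failed to overlap for 14.6% of all genes, and for LLC and Control this was not counted. For Ankrd23, all LLC mice lay below all Control and all LLC + rFibcd1 mice. The difference between LLC and Control was -0.35 ± 0.16 (SE, limma, adjusted p = 0.0908), that between LLC + rFibcd1 and LLC 0.56 ± 0.16 (SE, limma, adjusted p = 0.163), and the difference between the rFibcd1 effects with and without a tumor 0.89 ± 0.21 (SE, limma, adjusted p = 0.164). None of these passed the test over all genes, though the LLC difference from Control was called under median-ratio scaling, with only those 2 groups fitted and without LLC + rFibcd1 replicate 3 (limma, adjusted p = 0.0392, 0.0216 and 0.0434).

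Over the 6 genes other than Myl4, limma called 0 in LLC + rFibcd1 against LLC, 0 in Control + rFibcd1 against Control and 0 for the difference of both effects. At an unadjusted p under 0.05 the counts were also 0, beside 22.7%, 4.39% and 8.58% of all genes tested, and Dunn's test, the rank test of the study's own methods, gave 0 in each of the first 2 comparisons with and without adjustment. Calls were sparse over all genes as well, with 0.113% of all genes called in the first comparison, 0% in the second and 0% in the third. Control and Control + rFibcd1 failed to overlap for 0.812% of all genes and for none of the 7.

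**Figure D4:**
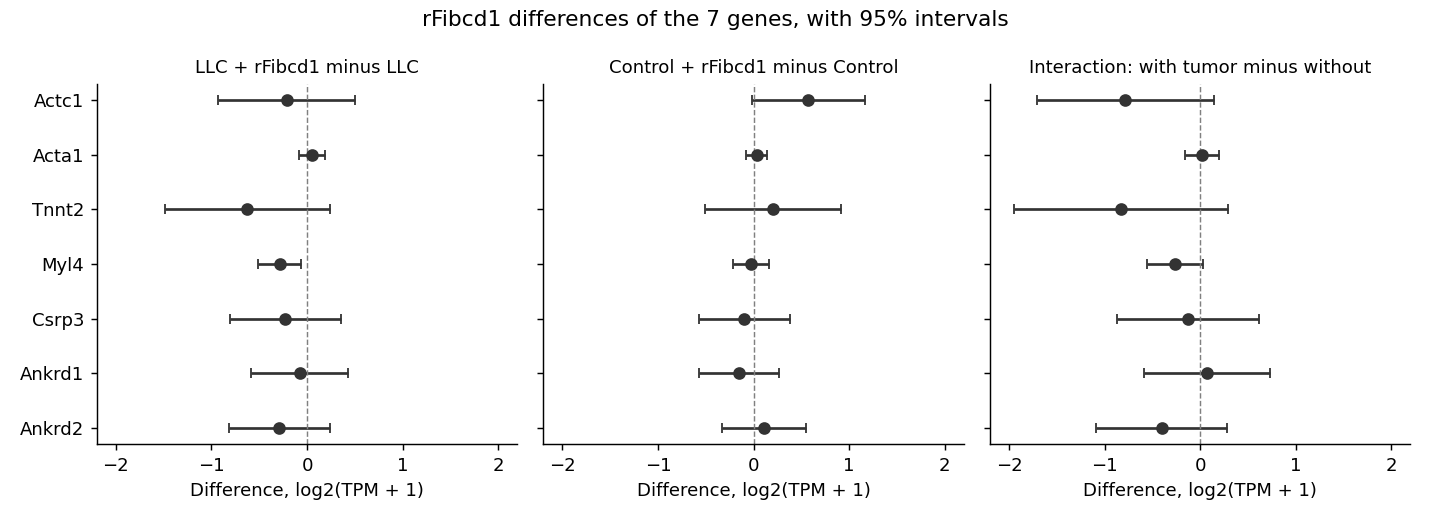
Differences of the 7 genes on the log2(TPM + 1) scale (horizontal) with 95% intervals for LLC + rFibcd1 minus LLC, Control + rFibcd1 minus Control and the difference of both. All 18 intervals of the 6 genes tested include 0, and those of Myl4, which entered the fit through tumor-bearing mice, are a description.

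From mouse to mouse within groups, Ankrd2 and Csrp3 rose and fell together. Their deviations from the group means had a Pearson r of 0.855 and a Spearman rho of 0.824 over 17 mice. Permutation of mice within groups gave p = 1e-04 for r and 0.00039 for rho, and 0.0021 and 0.00819 after Benjamini-Hochberg adjustment over 21 pairs of the 7 genes. Without the 2 mice farthest out in Ankrd2, r was 0.739. It was 0.754 among tumor-free and 0.948 among tumor-bearing mice, and 0.862 in values rescaled without mitochondrially encoded genes.

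No other pair passed the adjustment. Acta1 and Ankrd2 had r = 0.670 and rho = 0.603 (permutation p = 0.0281 and 0.0403, adjusted p = 0.197 and 0.282), with r = 0.495 without the 2 farthest mice. Actc1 and Csrp3 ran opposite ways with r = -0.577 and rho = -0.623 (permutation p = 0.0149 and 0.0125, adjusted p = 0.156 and 0.131). Actc1 and Acta1 were hardly related, with r = 0.06 and rho = 0.113 (permutation p = 0.834 and 0.683).

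**Figure D5:**
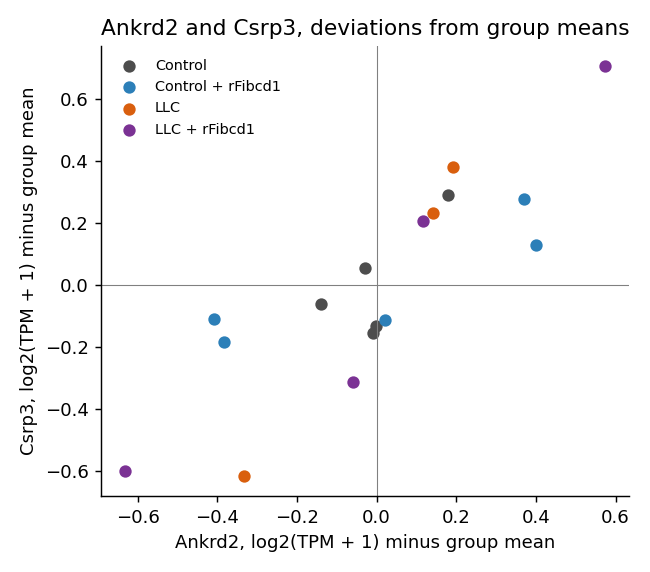
Deviations of Csrp3 (vertical) against those of Ankrd2 (horizontal) from their group means on the log2(TPM + 1) scale, with a point for each of 17 mice colored by group. The points follow a rising line with r = 0.855, from LLC + rFibcd1 replicate 3 at the lower left to LLC + rFibcd1 replicate 1 at the upper right.

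The genes whose deviations were most like those of each gene were sought among 5689 genes with a mean of at least 10 TPM, as a description over 17 mice that share their libraries. For Actc1 they were Tie1 (r = 0.862), an endothelial receptor kinase, Plcg1 (0.760), a phospholipase, Man2a2 (0.752), a Golgi mannosidase, Crybb1 (0.751), a crystallin, and Hspg2 (0.730), the basement membrane protein perlecan. For Tie1, r was 0.900 among tumor-free and 0.827 among tumor-bearing mice, and for Hspg2 it was 0.899 and 0.240. Rnasek (-0.721), Eif1 (-0.634) and Polr2j (-0.616) ran most opposite to it. The summed level of 6 endothelial markers, Tie1 among them, was 193 to 220 TPM in Control, 172 to 210 in Control + rFibcd1, 197 to 232 in LLC and 243 to 260 in LLC + rFibcd1. The part of endothelium in the Actc1 values was not tested. Of the 5 genes most like Actc1, Tie1 alone stayed on the list when genes with a mean of 1 TPM or more were searched. Tie1 and Plcg1 stayed when mitochondrially encoded genes were left out of the scaling.

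Acta1 was most like Hspb6 (0.870), a small heat shock protein, Murc (0.868), a caveolar muscle protein now named Cavin4, and Stac3 (0.860), a part of the excitation-contraction machinery. Ankrd2 was most like Xirp1 (0.904), an actin-binding repair protein, Ppp1r27 (0.871) and Csrp3 itself. Csrp3 was followed by Mgst3 (0.749) and Atp5g2 (0.735) after Ankrd2. Tnnt2 was most like Myh11 (0.892), the smooth muscle myosin heavy chain, Gsta4 (0.867) and Ube2o (0.845). Myl4 was most like Gm2000 (0.851), Ufm1 (0.827) and Vps29 (0.796), and Ankrd1 like Ap4s1 (0.807), Tmem42 (0.720) and Rbm24 (0.690), a splicing regulator.

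The rest of the sarcomere was read from 3 lists of 69 genes, 61 of which passed the filter on low values. In LLC against Control, limma called 22 of the 61 lower and 0 higher, against 6.02% of all genes called lower and 29.7% called higher. Of 21 fast and pan-muscle genes, 12 were lower, with a median difference of -0.26 beside 0.16 over all genes. Myh1, the type 2X myosin heavy chain, was lower by a difference of -0.64 ± 0.13 (SE, limma, adjusted p = 0.0093), Neb, the thin filament ruler nebulin, by -0.49 ± 0.15 (SE, limma, adjusted p = 0.0249) and Ttn, titin, by -0.40 ± 0.11 (SE, limma, adjusted p = 0.0182). Of 27 Z-disc and titin strain genes, 9 were lower, with a median of -0.18. Myoz3 (-0.42 ± 0.11, SE) and Myoz1 (-0.29 ± 0.08, SE) encode calcineurin-binding Z-disc proteins, and Murc was at -0.37 ± 0.12 (SE). Of 13 other cardiac, slow or fetal genes tested out of 21 listed, 1 was lower, the calcium store protein Casq2 at -0.39 ± 0.10 (SE), with a median of -0.01. These counts depend on the mice and on the scaling. None was called without LLC replicate 3, by Dunn's test or with the replicate number as a block, and with each mouse scaled to pan-myofiber genes, Ttn, Neb and Tcap of these lists among them, 10 were higher and 1 lower, beside 64.9% and 0.268% of all genes. Calls fell over all genes too, to 24 without LLC replicate 3, 5 with the block and 0 by Dunn's test, which at an unadjusted p under 0.05 had 21 of the 61 and 37.5% of all genes. Of the 24, none was a gene named here as called between LLC and Control. The calls of Neb, Myoz1 and Murc were also lost without LLC replicate 1, those of Neb and Murc without Control replicate 4, and that of Murc without Control replicate 3.

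In LLC + rFibcd1 against LLC, 49 of those 61 genes had positive differences, beside 27.0% of all genes, with a median of 0.12 beside -0.11 over all genes. limma called 0 of them, 15 had an unadjusted p under 0.05 (24.6%, beside 22.7% of all genes), and Dunn's test called 10 without adjustment, beside 7.17% of all genes, and 0 with it, as for all genes. In Control + rFibcd1 against Control limma called 0, with 1 at an unadjusted p under 0.05, beside 4.39% of all genes. Their median difference was -0.01 there, with 30 positive and 31 negative. Scaled to pan-myofiber genes, the median over all genes in LLC + rFibcd1 against LLC was -0.25, and the signs of the 61 were not counted.

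Of 4 other actins, 3 were higher in LLC than in Control, the opposite direction to Actc1 and the direction of 29.7% of all genes. Actb, cytoplasmic beta actin, was higher by 0.91 ± 0.24 (SE, limma, adjusted p = 0.0149), Acta2, the vascular smooth muscle actin, by 0.81 ± 0.30 (SE, limma, adjusted p = 0.0478) and Actg1, cytoplasmic gamma actin, by 0.72 ± 0.19 (SE, limma, adjusted p = 0.0143). The calls of Actb and Actg1 were lost without LLC replicate 3 (limma, adjusted p = 0.0816 and 0.0837). That of Acta2 was lost without any 1 of 14 mice, and without LLC replicate 3 its difference was 0.23. Actg2 differed by 1.43 ± 0.99 (SE, limma, adjusted p = 0.260), or -0.11 without that mouse. In LLC + rFibcd1 against LLC none of the 4 was called by limma, with adjusted p from 0.232 (Actg1) to 0.542 (Actg2), and none had an unadjusted p under 0.05.

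Of 18 listed regulators of these genes, 15 were tested. In LLC against Control 2 were lower and 0 higher, beside 6.02% and 29.7% of all genes. They were Myod1, the myogenic factor, at -0.39 ± 0.13 (SE, limma, adjusted p = 0.0360) and Tead1 at -0.26 ± 0.10 (SE, limma, adjusted p = 0.0490). Of 17 fits without 1 mouse, Myod1 lost its call in 5 and Tead1 in 14. Over 9 alternatives Myod1 ran from -0.65 to -0.15, with adjusted p from 0.00918 to 0.367 (limma). Tead1 ran from -0.46 to -0.0051, with adjusted p from 0.0128 to 0.970 (limma). In LLC + rFibcd1 against LLC 1 was higher and 0 lower, beside 0.113% of all genes called. It was the transcriptional coactivator Yap1, higher by 0.28 ± 0.05 (SE, limma, adjusted p = 0.0402). Yap1 was 14.7 to 15.5 TPM in LLC, 18.3 to 19.1 in LLC + rFibcd1, 15.6 to 17.1 in Control and 14.3 to 16.6 in Control + rFibcd1, so that LLC + rFibcd1 lay above every other group. Values of LLC + rFibcd1 and LLC failed to overlap for 14.6% of all genes. The call was lost without any 1 of 12 mice, all 7 tumor-bearing mice among them.

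The tissue carried the marks of skeletal muscle with an admixture of other cells. Ckm was at 4216 to 5701 TPM, Ryr1 at 211 to 288 and Cacna1s at 182 to 248. Heart markers were low throughout, with Myh6 at 0.251 to 1.39 and Myl7 at 0.127 to 3.80 TPM. Smooth muscle genes Myh11 and Tagln reached 61.6 and 169 TPM, and the satellite cell genes Pax7, Myf5 and Myod1 reached 2.12, 1.78 and 17.5 TPM. B cell genes Cd79a and Cd79b ranged up to 110 and 79.7 TPM, macrophage genes Adgre1, Cd68 and Csf1r up to 18.1, 27.0 and 30.6, and neutrophil genes S100a8, S100a9 and Retnlg up to 56.9, 125 and 12.01. Endothelial genes Pecam1, Cdh5 and Kdr reached 75.1, 71.5 and 28.9 TPM, and fibroblast genes Pdgfra, Dcn and Col1a1 9.63, 768 and 94.9. Adipocyte genes Adipoq, Plin1 and Lep reached 436, 113 and 6.70 TPM, and mesothelial genes Msln, Upk3b and Krt19 51.3, 75.9 and 116. In LLC against Control, limma called 29.7% of all genes higher, beside 7 of 9 B and plasma cell markers, 5 of 5 tested neutrophil markers, 3 of 7 macrophage markers, 1 of 6 endothelial markers and 0 of 6 each of fibroblast, adipocyte and mesothelial markers. Of 6 satellite and regenerating fiber markers, 1 was higher and 1 lower. Without LLC replicate 1 the B and plasma cell count was 1 and the macrophage count 0, and without LLC replicate 2 these counts were 3 and 0 and that of adipocyte markers 3. Mitochondrially encoded genes took 41.3% to 50.4% of each mouse's TPM, with 3 LLC mice at 41.3% to 44.3% and 5 Control mice at 45.9% to 48.4%.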

How the data were processed

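The deposited table holds TPM for 47643 gene symbols in diaphragms of 17 mice, with 24693 symbols at 0 throughout. Per the labels and the study's methods, the authors aligned reads to mm10 and used CLC Genomics Workbench to count them over genes; the annotation release and strand setting are not given in the sources used here. TPM is relative, so that abundant genes, mitochondrially encoded ones included, shift all others. Depth was estimated at 23.9 to 26.7 reads per TPM and kilobase from steps of low values, 81.4% to 83.9% of which lay within 0.02 of whole reads (4% at random).

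log2(TPM + 1) of the 13305 genes that reached 1 TPM in 3 or more mice was fitted in limma 3.58.1 (R 4.3.3) with 4 groups in a model (13 residual degrees of freedom, eBayes with trend), Benjamini-Hochberg adjustment over all genes and a threshold of 0.05. Differences of the Actc1 share were tested by exact permutation, and correlations of deviations by permuting mice within groups. The fit was tested on simulated data. Python 3.11.15 read sequences from GENCODE vM21 and RefSeq. The 7 genes and all lists were chosen with earlier results of these data known. Named were the 7 genes, Ankrd23, Acta2 and Actg2, per list and tested comparison up to 3 called genes with the largest change, the genes most like each of the 7, and the first 3 markers per cell type, of which 1 is not reported here. The labels call the samples biological replicates. Alternatives were other pseudocounts, filters, scalings, Dunn's test, a replicate block and leaving out each mouse.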

Additional observations from a re-analysis of the deposited data

Results flagged for a closer look

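Within groups of 4 or 5 mice, the 7 genes and the Actc1 share were searched for a mouse far from the others by Dixon's test at the 95% level, which would pick out about 5% of such groups by chance. Of 24 such sets of values, 2 held such a mouse. Tnnt2 was 2.96 TPM in Control + rFibcd1 replicate 2, where the gap to the next mouse was 0.772 of the group's range beside a critical value of 0.71. That mouse also had the highest smooth muscle marker sum of its group, 195 TPM. Ankrd1 was 9.59 TPM in Control replicate 2, where the gap was 0.720 of the range.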

How the results depend on the processing

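None of the 6 genes tested was called in any of the 3 tested comparisons under any alternative that gave a value. Tnnt2 and Myl4 had no value with a mean of at least 5 TPM, and Dunn's test and a fit of only 2 groups give no difference of both effects. The tumor difference of Actc1 ranged from -1.69 to -1.36 over 8 settings and from -1.63 to -1.42 without each mouse. Median-ratio scaling moved the median LLC difference over all genes from 0.16 to -0.01, quantile normalization to -0.10 and scaling to pan-myofiber genes to 0.38. In LLC against Control 22 sarcomere and Z-disc genes were called, all lower. The count was 11 when scaled to pan-myofiber genes, 10 of them higher, 0 by Dunn's test, and 18 to 29 lower over the other filters, scalings and pseudocount, with the most under median-ratio scaling. It ran from 0 (without LLC replicate 3) to 23 (without LLC replicate 2), with 10 without LLC replicate 1. In LLC + rFibcd1 against LLC it ran from 0 to 1 (without LLC replicate 2). Only 1 and 2 of the 5 genes most like Actc1 stayed on its list with a mean of 1 TPM or more and without mitochondrially encoded genes. The cause of these shifts was not tested.

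Small differences changed sign. Scaled to pan-myofiber genes, LLC + rFibcd1 against LLC was -0.11 for Acta1, and the difference of both rFibcd1 effects -0.13 for Acta1 and -0.065 for Ankrd1. Median-ratio scaling gave 0.050 for Ankrd1 in LLC + rFibcd1 against LLC and 0.0041 for Myl4 in Control + rFibcd1 against Control. Quantile normalization gave 0.11 and 0.054 for them, and -0.029 for the difference of both effects of Acta1. Without each mouse in turn, LLC + rFibcd1 against LLC ran from -0.42 to 0.056 for Actc1, -0.96 to 0.036 for Tnnt2, -0.18 to 0.019 for Ankrd1, -0.68 to 0.20 for Acta2 and -1.77 to 0.59 for Actg2, and Control + rFibcd1 against Control from -0.095 to 0.014 for Myl4 and -0.23 to 0.057 for Ankrd1. The difference of both effects ran from -0.027 to 0.051 for Acta1, -0.14 to 0.17 for Ankrd1 and -0.43 to 0.073 for Csrp3, and LLC against Control from -0.11 to 2.25 for Actg2. The Actc1 share difference ran from -0.200 to 0.0130 points with a tumor and 0.400 to 0.799 without.

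For mice of different groups with the same replicate number, the median r of deviations was -0.04 over 22 pairs, with 5 pairs over 0.1. With different numbers it was -0.03 over 85 pairs, with 30 over 0.1. The meaning of the replicate number is not given in the sources used here, and whether it marks anything shared was not tested. With it as a replicate block, the sarcomere count was 0 and that of all genes 5 in LLC against Control, the tumor difference of Actc1 was -1.38 and Yap1 had an adjusted p = 0.121 (limma). Over 9 alternatives the adjusted p of Yap1 ran from 0.0268 to 0.297, and its call was also lost with a pseudocount of 0.1 TPM, under median-ratio and pan-myofiber scaling, and with only 2 groups fitted. The call of Acta2 was lost under every scaling but that to pan-myofiber genes. The correlation of Ankrd2 and Csrp3, whose alternatives were chosen after seeing the data, was 0.855 to 0.874 over 4 settings and 0.793 to 0.887 without each mouse. Depth was lowest for Myl4, with 50.9 to 174 estimated reads a mouse.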
